A study of Mus musculus with 31 samples.

Results

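Eyes of Ftx knockout (KO) females (XX, Ftx-/-) were compared with eyes of Ftx KO males (XY, Ftx-/Y) across autosomal genes. All arrays of these genotypes were used: 22 arrays of 11 XX eyes, with 2 arrays for each eye, and 3 arrays of 3 XY eyes, which is 25 of the 31 arrays and 14 of the 20 eyes. The other eyes, 3 from WT females and 3 from WT males, give the difference between the sexes where Ftx is intact. All eyes were taken at embryonic day 13.5 from mice on a pure C57BL/6N background, looked normal, and had the pigmented epithelium removed by hand before total RNA was labelled with Cy3 for 1-colour Agilent arrays. Both Ftx KO groups carry the same targeted allele, which removes Ftx together with the microRNAs that lie in one of its introns. The groups differ in sex, and with it in how many X chromosomes carry the deletion, and these cannot be told apart. Of the 52622 autosomal probes on the array, the 13651 with a mean signal above 500 in either KO group were tested, on chromosomes 1 to 19 by their mm9 positions. The rule on signal uses these values: 13142 probes passed in both groups, 262 through the XX eyes alone and 247 through the XY eyes alone, and the probes at its edge were 9530077C05Rik at 500.2 inside and Zbtb38 at 499.98 outside.

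Ftx is a long noncoding RNA gene of the X-inactivation center, next to Xist, whose RNA coats and silences one X chromosome in female cells. The embryonic eye at this age consists of a lens, whose elongating fibre cells fill with crystallins and with a beaded filament built from filensin and phakinin, and of a retina, in which dividing progenitors give rise first to ganglion cells and to cone, amacrine and horizontal cells. Proneural factors and Notch ligands decide which progenitors leave the cycle, and Hedgehog protein from ganglion cells acts on the progenitors through the Gli factors.

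The labels were checked first. The Ftx probe A_55_P2175002 read 8.24 to 37.4 in XX eyes and 13.1 to 18.6 in XY eyes, against 50.1 to 134 in WT females and 101 to 110 in WT males. Xist (A_52_P113537) read 674 to 1250 in XX eyes and 7.18 to 7.55 in XY eyes. The Y-linked gene Ddx3y read 916 to 1002 in XY eyes and had a median of 7.81 in XX eyes, where XX eye 6 alone stood higher, at 79.9, and had 1 array above background. Eif2s3y, also Y-linked, read 34.2 in that eye, again with 1 array above background, and had a median of 6.62 over the XX eyes, against 1515 to 2064 in XY eyes. This eye was kept, and the calls without it are given below. For the tissue, 23 of 24 crystallin probes and 18 of 20 probes of retinal progenitor genes were well above background on every KO array, against 3 of 32 probes of muscle genes. Pigment genes were still present, with 17 of 23 probes well above background on every KO array. XY eye 1 shared a slide with the WT eyes (slide 1), XY eyes 2 and 3 with XX eyes 1 to 3 (slide 2), and the other XX eyes filled slides 3 and 4. The 4 XX eyes of slide 3 stood apart from the other KO eyes on the first principal component (25.6 to 30.5, the others at most 4.91, 40.0% of the variance), and XX eye 8 on the second (-39.2, 23.1%). Among the XX eyes, 4631 of 13651 probes (33.9%) differed between slides 2, 3 and 4 at an adjusted p under 0.05. Nothing in the labels says that eyes came from separate litters or animals, so the p-values measure the spread between these eyes only. In whole eyes, fewer cells of a type and less RNA per cell cannot be told apart.

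Among the probes that passed the test, members of the lens fibre, crystallin, ganglion cell, proneural and synaptic genes, the Hedgehog pathway genes Gli1 and Hhip and adult globin genes were lower in XX than in XY eyes, while the receptors Robo1, Unc5b and Csf1r, the enzyme Mogat2 and Trim71 were higher. With limma and Benjamini-Hochberg adjustment over the 13651 probes, 269 probes (1.97%) had an adjusted p under 0.05 and are named as called. Of these, 208 (1.52%) were lower in XX eyes, from 186 named genes, and 61 (0.447%) were higher, from 53 named genes. The lower probes had a median log2 difference of -0.52 and the higher ones of 0.38, while the median over all tested probes was 0.00 in size. The standard error of a log2 difference was 0.0934 at the median. Of the 269 probes, 230 had no overlap between the 11 XX and the 3 XY eyes (180 lower, 50 higher), as had 4.53% of all tested probes. Probes lower in XX eyes lie at high as well as moderate signal. By the study's own criteria, a fold above 1.2 or below 0.8 with an unadjusted p under 0.05, but with limma's p in place of the methods' t-test, 971 probes (7.11%) differed, 387 higher (2.83%) and 584 lower (4.28%). With that test 1132 did, 587 higher and 545 lower. An unadjusted p under 0.05 alone was reached by 17.0% of the tested probes. The adjusted calls depended on which eyes were fitted, and there were 3 XY eyes. They numbered 12 without XY eye 1, 0 without XY eye 2, 0 without XY eye 3, 3 without the XX eyes of slide 3 and 104 without XX eye 6. With the 14 KO eyes alone they numbered 56, and with the slide as a block 0. With XY eye 2 or 3 left out, 1245 and 1438 probes had an unadjusted p under 0.05, with the slide as a block 1207, without XX eye 6 1982, and all 269 kept their direction in each of these fits.

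Without XX eye 6, 81 of the 104 called probes were lower and 23 higher, and all 104 were among the 269. Of the lists described below, the genes that fell then numbered 3 for lens fibre genes (Bfsp1, Bfsp2 and Lenep), 2 for crystallins (Cryab and Crygb), 4 for ganglion cell genes, 1 for other retinal neurons (Rxrg), 3 for proneural and Notch genes, 7 for axon and synapse genes, 2 for the amino acid response (Asns and Shmt2), 1 for hypoxia (Ndrg1), 2 for erythroid genes and 2 for Hedgehog genes, and those that rose 3 for Lin28 and let-7 and 1 for macrophage genes (Csf1r). List medians moved little, to -0.56 for lens fibre genes, -0.48 for crystallins and -0.58 for axon and synapse genes. Robo1 (1.14, adjusted p = 0.0503), Unc5b (0.63, adjusted p = 0.0515) and Sepp1 (0.63, adjusted p = 0.0689) were no longer called, nor were Hmha1, Pla2g5, Ttc23, Elk3, Galnt12, Chac1 and R3hdml, whose adjusted p was 0.0503 to 0.0798.

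A probe with a mean above 500 in 1 group alone was tested only because that group was high. Of the 247 such probes that passed through the XY eyes 29 (11.7%) were called, and of the 262 that passed through the XX eyes 8 (3.05%). Among genes described here these were Hhip, Lfng, Chac1, Trib3, Irx4, Ptpn5, Cadm3, Fgf3, 1 probe of Pla2g7 and 1 of Rbpms for the XY eyes, and Hmha1, Pla2g5 and Apoc1 for the XX eyes. They give 1 of the 2 lower Hedgehog genes, 1 of the 7 proneural and Notch genes, 2 of the 7 amino acid response genes and 2 of the 21 axon and synapse genes. All 37 had a mean above 100 in both groups, and 25 of the 29 and 5 of the 8 were called with a minimum of 100 in place of 500.

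**Figure D1:**
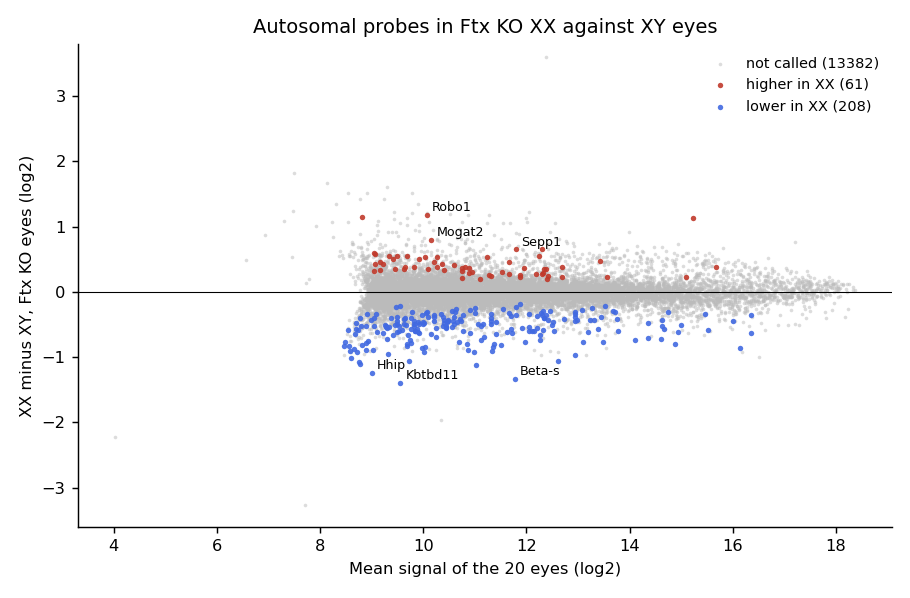
Each point is 1 of the 13651 autosomal probes, with the mean log2 signal over the 20 eyes on the horizontal axis and the log2 difference of XX minus XY eyes on the vertical axis. The 208 probes lower in XX eyes and the 61 higher ones at an adjusted p under 0.05 are shown in blue and red, the others in grey. The lower group is the larger and reaches -1.39, and the higher group reaches 1.18.

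The probes behind 5 of these differences are shown because each value below is what these bases captured. They are the first 30 bases of each probe, on the minus strand of mm9, for a filament gene, the 2 Hedgehog pathway genes, a globin and a let-7 target. No base is in capitals, since no part of a probe is singled out. Hhip lies at chr8:82494280-82494339, Gli1 at chr10:126766967-126767026, Bfsp1 at chr2:143652265-143652324, Beta-s at chr7:110976379-110976438 and Trim71 at chr9:114420415-114420474. An annotation of mm9 was not used here, so exons are not given.
Bfsp1: tctgcattgcaggtgacctccaatgacctt
Gli1: ggggctgtatttagtctatgtatgttccag
Hhip: gcagtagccttcatctgtaggttaatagtc
Beta-s: tttgcttctgacatagttgtgttgactcac
Trim71: aaaggatttacaaaccaaaccacccaacag

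Of 10 tested genes of the lens fibre cell, each with 1 probe, 5 fell in XX eyes (Bfsp1, Bfsp2, Lenep, Grifin and Lim2) and none rose, and 9 of 10 had a difference below 0. Their median log2 difference was -0.58. Bfsp1, which encodes filensin, read 10103, 11827 and 11186 in XY eyes 1, 2 and 3 and 4103 to 8850 (median 5477) in the XX eyes. Every XX eye was below every XY eye, and the log2 difference was -0.97 ± 0.18 (SE, adjusted p = 0.0177, limma). Bfsp2, the phakinin gene and the partner of filensin in the beaded filament, read 23749, 29514 and 27143 in XY eyes and 12414 to 22752 (median 16094) in XX eyes. Its groups did not overlap either (log2 difference -0.71 ± 0.15, adjusted p = 0.0268). Lenep, a gene of lens epithelium and fibres, read 3361, 3766 and 3447 against 1397 to 2839 (median 1906), also without overlap (-0.90 ± 0.15, adjusted p = 0.0122). Grifin, a galectin-related lens protein, differed by -0.56 (adjusted p = 0.0468), and Lim2, a membrane protein of fibre cells, by -0.60 (adjusted p = 0.0468), where 1 XX eye reached into the XY range. Mip, the lens aquaporin (-0.31, adjusted p = 0.156), was not called. Hspb1 had the opposite sign (0.47, adjusted p = 0.626), and Birc7, Lgsn and Dnase2b were below the minimum signal. The levels of markers of pigment cells and mesenchyme, other tissues that a dissected eye can hold, are given further on, and their part in these differences was not tested.

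Crystallin genes, which encode the bulk protein of the lens, had 15 of 16 members tested by 22 probes. Of these genes 4 fell (Cryab, Crygn, Cryba4 and Crygb, 5 probes), none rose, and 20 of 22 probes were below 0, with a median of -0.50. Crygb, a gamma crystallin, read 40372, 44380 and 35034 in XY eyes and 15000 to 30706 (median 23548) in XX eyes, with no overlap (-0.80 ± 0.17, adjusted p = 0.0268). For Cryab, the small heat shock protein alpha-B crystallin, both probes fell, by 0.62 and 0.56 on the log2 scale (adjusted p = 0.0217 and 0.03). Probes of Cryba4 did not move together: A_55_P2000034 differed by -0.64 (adjusted p = 0.0305) and A_55_P2027831 by -0.01 (adjusted p = 0.971). Crystallin genes of the gamma cluster are close copies, so a probe may read more than 1 of them. No probe of these lists was saturated on a KO array. Among 12 lens transcription factors 0 were called by limma's adjusted p, and 6 had an unadjusted p under 0.05 below 0 and 1 above (9.63% and 7.34% of all tested probes). Their median was -0.32. Prox1, which drives fibre differentiation, differed by -0.72 (adjusted p = 0.076) and Hsf4, a heat shock factor of the lens, by -0.72 (adjusted p = 0.0632). Pax6, the master gene of the eye, differed by -0.14 (adjusted p = 0.547).

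**Figure D2:**
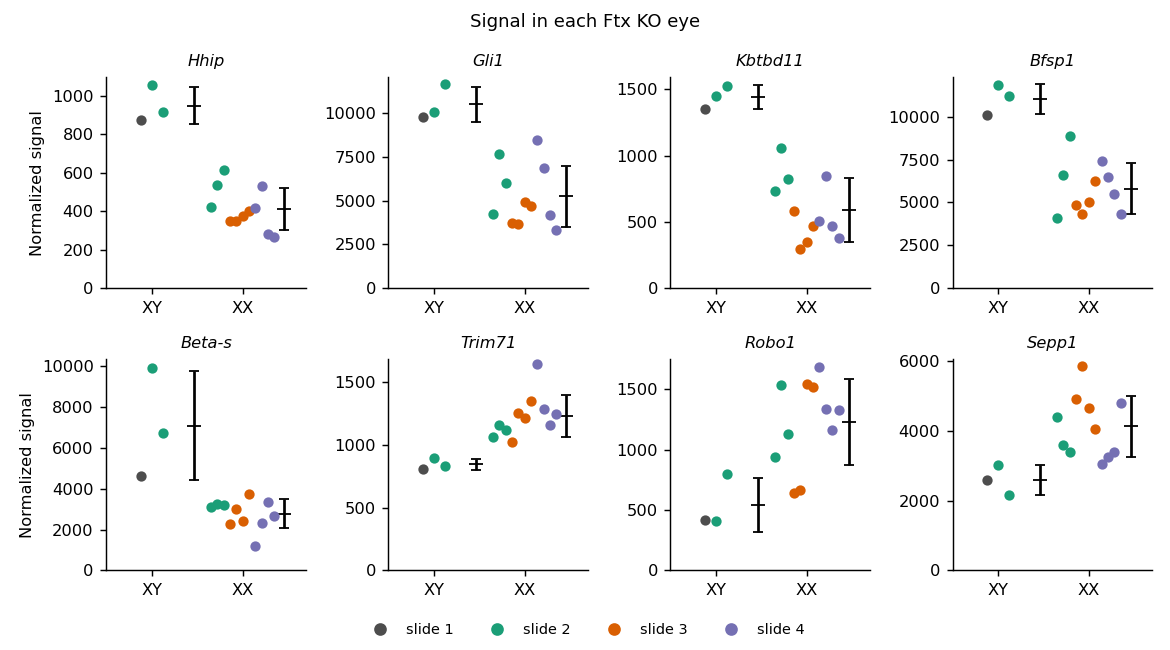
The normalized signal of 8 genes in each XY eye (left) and each XX eye (right), on a linear axis from 0, with the slide as colour and the group mean ± SD as bars. The 11 XX eyes lie below the 3 XY eyes for Hhip, Gli1, Kbtbd11, Bfsp1 and Beta-s and above them for Trim71 and Sepp1, and 9 of 11 XX eyes lie above the highest XY eye for Robo1.

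Gli1 and Hhip, a pair of direct outputs of the Hedgehog pathway, were lower in every XX eye than in any XY eye. Gli1, a transcription factor that the pathway both uses and induces, read 9775, 10051 and 11630 in XY eyes and 3322 to 8480 (median 4683) in XX eyes, a log2 difference of -1.06 ± 0.23 (adjusted p = 0.0268). Hhip, a decoy receptor that binds Hedgehog protein and limits its spread, read 875, 1057 and 916 and 265 to 615 (median 404), a difference of -1.24 ± 0.20 (adjusted p = 0.00789). Its XX mean was below the minimum signal, and with the minimum of 100 its adjusted p was 0.00961. The other tested Hedgehog genes did not pass the test. Of 9 genes on a Hedgehog list written after the values were seen, 2 fell and none rose, 7 of 11 probes were above 0, and the median was 0.16. At an unadjusted p under 0.05, 4 probes were higher and 2 lower, against 7.34% and 9.63% of all tested probes. Shh and Ptch1, the ligand and its receptor, were below the minimum signal.

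Proneural and Notch genes had lower members as well. Of 15 tested retinal progenitor genes 1 fell, and the median was -0.13. In that list Hes5, a Notch target (-0.58, adjusted p = 0.0566), and Ccnd1, the cyclin of progenitors (-0.48, adjusted p = 0.147), were not called. On a list of 18 proneural and Notch genes, also written after the values were seen, 7 fell (among them Dll3, Lfng, Scrt1, Scrt2, Sox4 and Neurog2) and none rose, with a median of -0.20 over 24 probes. Both probes of Dll3, a Notch ligand that acts within the cell, fell: A_55_P2045208 read 1446, 1538 and 1597 in XY eyes and 836 to 1274 (median 941) in XX eyes (-0.64 ± 0.10, adjusted p = 0.00789), without overlap. Lfng, a glycosyltransferase that modifies Notch, read 509, 521 and 658 and 335 to 440 (median 389) (-0.52 ± 0.10, adjusted p = 0.0177), again without overlap, and passed the minimum through the XY eyes alone (adjusted p = 0.0184 with the minimum of 100). Scrt1 and Scrt2, repressors in newborn neurons, differed by -0.45 and -0.49, and Neurog2, a proneural factor, by -0.32 (adjusted p = 0.0446). Of the 3 probes of Sox4, only A_55_P2121613 was called (-0.44, adjusted p = 0.0493), and the other two were at -0.19 and -0.18.

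Bases upstream of the 7 lower genes were read to see what they share. CAGCTG, an E-box that reads the same on both strands, lay within the 250 bases before the start of 3 of the 4 with an entry in the RefSeq promoter table (GRCm38.p6), Dll3, Lfng and Sox4, as it did in 13.0% of the 32851 promoters. The promoter of Dll3 is chr7:28301786-28302035 (minus strand), that of Lfng chr5:140607091-140607340 (plus strand) and that of Sox4 chr13:28953700-28953949 (minus strand), with the E-box in capitals. A gene was counted when any of its entries held the E-box, whereas the 13.0% is a share of single entries. A match of letters does not show that a factor binds there.
Dll3: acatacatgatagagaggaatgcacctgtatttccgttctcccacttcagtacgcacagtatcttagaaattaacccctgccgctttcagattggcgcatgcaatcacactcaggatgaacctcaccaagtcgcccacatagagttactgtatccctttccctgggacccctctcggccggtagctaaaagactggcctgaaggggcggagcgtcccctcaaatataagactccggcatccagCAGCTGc
Lfng: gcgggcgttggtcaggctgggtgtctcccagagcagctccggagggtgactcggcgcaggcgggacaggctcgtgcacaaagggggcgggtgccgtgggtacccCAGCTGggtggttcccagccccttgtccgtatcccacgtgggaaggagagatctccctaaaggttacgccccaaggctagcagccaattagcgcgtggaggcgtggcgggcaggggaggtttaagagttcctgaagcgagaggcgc
Sox4: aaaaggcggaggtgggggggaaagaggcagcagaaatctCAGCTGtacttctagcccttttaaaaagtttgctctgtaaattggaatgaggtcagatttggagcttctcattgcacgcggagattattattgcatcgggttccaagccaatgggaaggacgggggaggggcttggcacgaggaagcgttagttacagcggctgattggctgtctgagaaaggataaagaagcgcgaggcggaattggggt

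Ganglion cell genes had lower means in XX eyes throughout the list. All 20 probes of 17 tested genes had a difference below 0, 17 of them with an unadjusted p under 0.05, as had 9.63% of all probes in that direction, and 4 genes passed the adjusted test (Sncg, Stmn3, Rbpms and Pou4f1), all lower. The median was -0.33. Sncg, gamma-synuclein, read 23104, 25245 and 23734 in XY eyes and 10499 to 19323 (median 13781) in XX eyes (-0.74 ± 0.14, adjusted p = 0.0202). Pou4f1, a POU factor of ganglion cells, read 3152, 3059 and 3032 and 1894 to 2828 (median 2311) (-0.44 ± 0.09, adjusted p = 0.0268). Neither gene had an XX eye within the XY range. Stmn3, a regulator of microtubules, differed by -0.60 (adjusted p = 0.0177), and 2 of the 3 probes of Rbpms, an RNA-binding protein that marks ganglion cells, by -0.44 and -0.43. Atoh7, which progenitors need to make ganglion cells, differed by -0.22 (adjusted p = 0.285) and was not called.

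Of 10 tested genes of other retinal neurons, 3 fell and none rose, with a median of -0.31 over 13 probes. Ptf1a, which makes amacrine and horizontal cells, read 1335, 1269 and 1155 in XY eyes and 579 to 1086 (median 836) in XX eyes (-0.64 ± 0.15, adjusted p = 0.0412), without overlap. Thrb and Rxrg are nuclear receptors of cones. Thrb (A_52_P532559) read 830, 929 and 943 and 528 to 818 (median 621) (-0.45 ± 0.11, adjusted p = 0.0412). For Rxrg, A_51_P513311 differed by -0.92 (adjusted p = 0.0238), whereas A_55_P2044359 was at -0.01 with overlapping groups. Between WT females and males, Thrb (A_52_P532559) differed by -0.46 (adjusted p = 0.287), which is as large as in the KO eyes, and Rxrg (A_51_P513311) by -0.37 (adjusted p = 0.634). Neither passed the test there.

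Genes of axons and synapses gave 23 of the 208 lower probes. On a list of them written after the values were seen, 21 of 27 tested genes fell and none rose, and 34 of 35 probes were below 0, with a median of -0.56. Gnao1, a G protein subunit of neurons, read 2428, 2543 and 2522 in XY eyes and 1275 to 2288 (median 1628) in XX eyes (-0.62 ± 0.14, adjusted p = 0.0342). Syt5, a synaptotagmin, read 2740, 2700 and 2643 and 1691 to 2230 (median 1933) (-0.49 ± 0.08, adjusted p = 0.00838), the smallest adjusted p of that list. Both were lower in every XX eye. Mapt, which encodes tau, differed by -0.77 and -0.77 with 2 of its 3 probes called. Syt1, a calcium sensor of synaptic vesicles, differed by -0.67 (adjusted p = 0.03). Genes of inhibitory transmission were among them, with Gad2, which makes GABA, at -0.62 (adjusted p = 0.0217) and Slc32a1, which loads it into vesicles, at -0.59 (adjusted p = 0.0386). Adhesion molecules included Ncam1, at -0.83 for the called probe and -0.38 for the other, and Cadm3 at -0.76 (adjusted p = 0.0217).

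**Figure D3:**
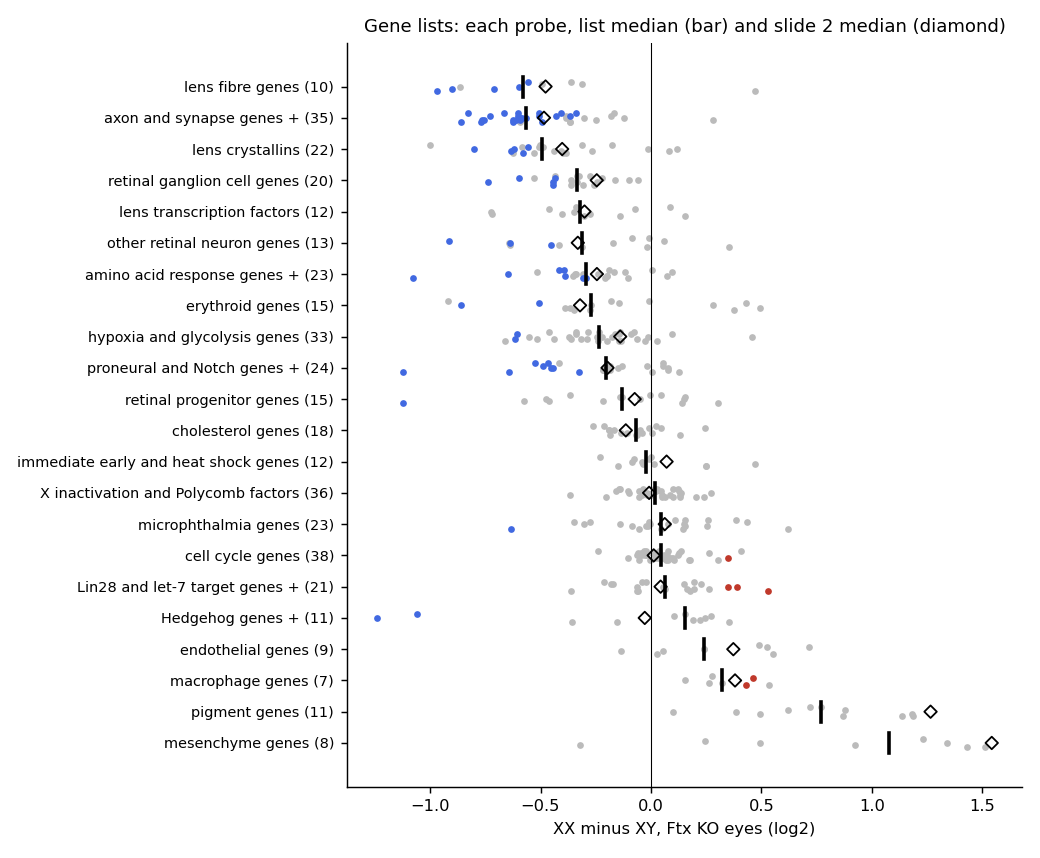
The log2 difference of XX minus XY KO eyes for every tested probe of each gene list with at least 5 tested probes (number in brackets, a plus sign for lists written after the values were seen). Probes called lower are blue and those called higher red, bars are list medians and diamonds the medians on slide 2. Lists of lens, ganglion cell and axon genes lie almost wholly below 0, with medians of -0.50, -0.58, -0.33 and -0.56, while pigment and mesenchyme genes spread widely above 0 with no probe called.

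Genes of the amino acid response and of low oxygen also had lower members. The amino acid response, in which Atf4 induces transporters and synthetic enzymes, was examined with a list written after the values were seen: 7 of 18 tested genes fell and none rose, with a median of -0.29 over 23 probes. Chac1, which degrades glutathione, read 674, 704 and 688 in XY eyes and 203 to 545 (median 288) in XX eyes (-1.08 ± 0.28, adjusted p = 0.0497). It passed the minimum through the XY eyes alone, and with the minimum of 100 it was not called (adjusted p = 0.0562). Asns, asparagine synthetase, read 9986, 8922 and 8495 and 5857 to 7986 (median 7139) (-0.39 ± 0.08, adjusted p = 0.0202). In both genes every XX eye was below every XY eye. Trib3, a pseudokinase of the same response, differed by -0.65, Atf5, a related factor, by -0.42, Shmt2, of mitochondrial serine metabolism, by -0.40, Aldh18a1, of proline synthesis, by -0.31 and Slc3a2, a transporter subunit, by -0.29. Of 24 tested hypoxia and glycolysis genes, 2 fell and none rose, while 30 of 33 probes were below 0 and 17 of these had an unadjusted p under 0.05, as had 9.63% of all probes in that direction. The median was -0.23. The mean level of the list relative to the XY mean was -0.44 to -0.01 in XX eyes and -0.08 to 0.07 in XY eyes, against -0.41 to -0.21 in WT females and -0.36 to -0.29 in WT males, so that the WT eyes lay within the XX range and the XY eyes above both WT groups. Ndrg1, a stress-induced gene, read 3859, 4346 and 4137 in XY eyes and 2284 to 3278 (median 2809) in XX eyes (-0.61 ± 0.11, adjusted p = 0.0168), and the called probe of Slc16a3, a lactate exporter, differed by -0.61 (adjusted p = 0.0325).

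Promoters of the 7 lower amino acid response genes were searched for TGATGNAA, a form of the element to which Atf4 binds, on both strands. It lay within the 250 bases before the start of 2 of the 7, Asns and Chac1, and in 3.45% of the 32851 promoters, where genes and single entries were counted as for the E-box. The promoter of Asns is chr6:7693210-7693459 (minus strand) and that of Chac1 chr2:119350992-119351241 (plus strand, where the match reads on the opposite strand), both in GRCm38.p6, with the match in capitals. GACCACCCA, a Gli motif searched in the same way, was in 0.225% of promoters and not in that of Hhip.
Asns: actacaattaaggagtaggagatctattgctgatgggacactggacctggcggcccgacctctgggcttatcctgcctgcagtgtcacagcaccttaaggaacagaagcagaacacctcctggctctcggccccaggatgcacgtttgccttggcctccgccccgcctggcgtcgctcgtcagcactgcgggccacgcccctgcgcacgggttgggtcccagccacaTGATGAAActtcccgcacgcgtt
Chac1: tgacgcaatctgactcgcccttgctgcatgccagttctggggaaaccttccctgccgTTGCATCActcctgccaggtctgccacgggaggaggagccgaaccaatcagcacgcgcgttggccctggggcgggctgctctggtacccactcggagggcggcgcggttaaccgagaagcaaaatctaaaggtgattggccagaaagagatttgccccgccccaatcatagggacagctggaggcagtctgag

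The adult beta-globin genes Beta-s and Hbb-b1 fell in XX eyes. Beta-s, an adult beta-globin gene, read 4598, 9898 and 6741 in XY eyes 1, 2 and 3 and 1219 to 3756 (median 2992) in XX eyes, with no overlap (-1.33 ± 0.25, adjusted p = 0.0177). Hbb-b1, the adjacent adult beta-globin, read 85403, 169170 and 123633 and 50312 to 85242 (median 68525) (-0.86 ± 0.18, adjusted p = 0.0268). These genes are close copies, and their probes may read each other. Of 14 tested erythroid genes, 2 fell (Hbb-b1 among them) and none rose, with a median of -0.27. Hba-a1, alpha-globin, differed by -0.92 (adjusted p = 0.0816). The summed signal of the list was 544593 to 901276 in XX eyes and 732957 to 1203280 in XY eyes, against 565841 to 617700 in WT females and 537473 to 660700 in WT males. All 6 WT eyes were below the 3 XY eyes in this sum. How much blood each eye held was not tested.

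Other lower genes were drawn from several functions. Kbtbd11, a kelch-repeat protein, had the largest difference of the named genes (-1.39 ± 0.28, adjusted p = 0.0217), with 1349, 1451 and 1525 in XY eyes and 296 to 1056 (median 505) in XX eyes, for A_55_P2075213. This rank rests on that probe: the other called probe, A_52_P570240, differed by -0.65 (adjusted p = 0.00789). On slide 2 A_55_P2075213 was at -0.79, smaller in size than Beta-s, Ptpn5, Pla2g7, Hhip, Gli1, Bfsp1, Tmem130 and R3hdml there and larger than Irx4 and Chac1. The XX mean of A_55_P2075213 was 870 on slide 2, 425 on slide 3 and 551 on slide 4, which differed (adjusted p = 0.037). Pla2g7, which inactivates platelet-activating factor, read 641, 721 and 686 and 211 to 510 (median 356) (-1.11 ± 0.23, adjusted p = 0.0236), with both probes called. Irx4, an Iroquois homeobox factor, read 538, 582 and 531 and 197 to 374 (median 280) (-1.01 ± 0.19, adjusted p = 0.0177). None of these genes had an XX eye within the XY range. Irx4 and this probe of Pla2g7 passed the minimum through the XY eyes alone, and had an adjusted p of 0.0216 and 0.027 with the minimum of 100. Ptpn5, a tyrosine phosphatase of neurons, differed by -0.95 in 1 of 2 tested probes (adjusted p = 0.0217), Tmem130 by -0.93 (adjusted p = 0.0177) and R3hdml by -1.06 (adjusted p = 0.0352), the last with 1 XX eye inside the XY range.

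Among the higher genes, the largest named difference was that of Robo1, a receptor for the Slit cues of axon guidance. It read 419, 410 and 803 in XY eyes and 639 to 1682 (median 1331) in XX eyes, a log2 difference of 1.18 ± 0.27 (adjusted p = 0.032). XY eye 3 lay within the XX range, and 9 of 11 XX eyes were above it. Unc5b, a netrin receptor, read 3749, 3976 and 4003 and 4634 to 8277 (median 6146) (0.65 ± 0.15, adjusted p = 0.0325), without overlap. Mogat2, an enzyme of triglyceride synthesis, read 725, 788 and 797 and 1111 to 1619 (median 1300) (0.80 ± 0.13, adjusted p = 0.00789), and all 11 XX eyes were above the XY eyes. Sepp1, the plasma selenium carrier selenoprotein P, read 2595, 3027 and 2172 and 3049 to 5866 (median 4056) (0.65 ± 0.16, adjusted p = 0.0432). The other named genes except Trim71, described below, rose by 0.54 to 0.60 on the log2 scale. They were Hmha1, a regulator of small GTPases (0.60), Pla2g5, a secreted phospholipase (0.58), the lectin gene Clec18a (0.56, both probes called), Ttc23 (0.55), Gm13157, where the second tested probe did not share the sign (0.55), Elk3, an ETS factor (0.54), and Galnt12, which starts O-linked sugar chains (0.54). Hmha1 and Pla2g5 passed the minimum through the XX eyes alone, and with the minimum of 100 Hmha1 was called (adjusted p = 0.0331) and Pla2g5 was not (adjusted p = 0.050001).

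Genes tied to the Lin28 and let-7 pathway, in which Lin28 proteins block the maturation of let-7 microRNAs, had 3 higher members. Trim71, a let-7 target and RNA-binding ubiquitin ligase, read 806, 891 and 834 in XY eyes and 1025 to 1639 (median 1213) in XX eyes (0.53 ± 0.10, adjusted p = 0.0177). Lin28b read 4447, 4603 and 5066 and 5259 to 6618 (median 5902) (0.35 ± 0.07, adjusted p = 0.0217). Neither gene's groups overlapped. Dnmt3b, a DNA methyltransferase, was called with A_55_P2130535 (0.39, adjusted p = 0.0168) and not with A_55_P2008874 (0.26) or A_55_P1975903 (0.17). On this list of 15 tested genes, again written after the values were seen, 3 rose and none fell, and the median over 21 probes was 0.06, close to that of all probes.

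Macrophage genes had higher means in XX eyes throughout the list. All 7 tested genes had a difference above 0, 2 rose, none fell, and the median was 0.32. Csf1r, the receptor for the growth factor of macrophages, read 2840, 2587 and 2166 in XY eyes and 2992 to 4132 (median 3417) in XX eyes (0.46 ± 0.10, adjusted p = 0.0236), with no overlap. Cx3cr1, the fractalkine receptor of macrophages and microglia, read 1161, 1246 and 978 and 1179 to 1781 (median 1473) (0.43 ± 0.11, adjusted p = 0.0479), and 10 of 11 XX eyes were above the XY eyes. Aif1, an actin-binding protein of the same cells, was at 0.53 (adjusted p = 0.0657) and Tyrobp, a signalling adaptor, at 0.32 (adjusted p = 0.238). The other 7 genes on the list were below the minimum signal. The mean level of the list relative to the XY mean was 0.16 to 0.59 in XX eyes and -0.18 to 0.18 in XY eyes, against 0.23 to 0.41 in WT females and 0.01 to 0.35 in WT males, so both WT groups overlapped the XX eyes.

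Pigment and mesenchyme genes varied widely between XX eyes and were higher there at the median, without passing the test. All 11 probes of 8 tested pigment genes were above 0, with a median of 0.77, and 0 passed limma's adjusted test while 5 had an unadjusted p under 0.05 (7.34% of all probes in that direction). Mesenchyme genes had a median of 1.08, with 7 of 8 above 0, 0 called, and 3 with an unadjusted p under 0.05 above 0 and 1 below (7.34% and 9.63% of all probes). The mean log2 level of the pigment list, relative to the XY mean, was -0.79 to 1.95 in XX eyes (median 1.02) and -0.22 to 0.30 in XY eyes, and its summed signal was 7750 to 56588 and 10778 to 15502. For mesenchyme genes the level was -0.10 to 2.37 in XX eyes (median 0.89) and -0.34 to 0.62 in XY eyes, and the summed signal 9801 to 54585 and 9252 to 14391. Of the defining pigment genes, Tyr was below the minimum signal, and Dct (probe with the lower p, 1.18, adjusted p = 0.263), Pmel (1.18) and Tyrp1 (0.87) were measured. On slide 2, XX eyes 1, 2 and 3 had pigment levels of 1.95, 1.46 and 0.78, all above XY eyes 2 and 3, and the part of pigment cells and mesenchyme in the other differences was not tested.

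**Figure D4:**
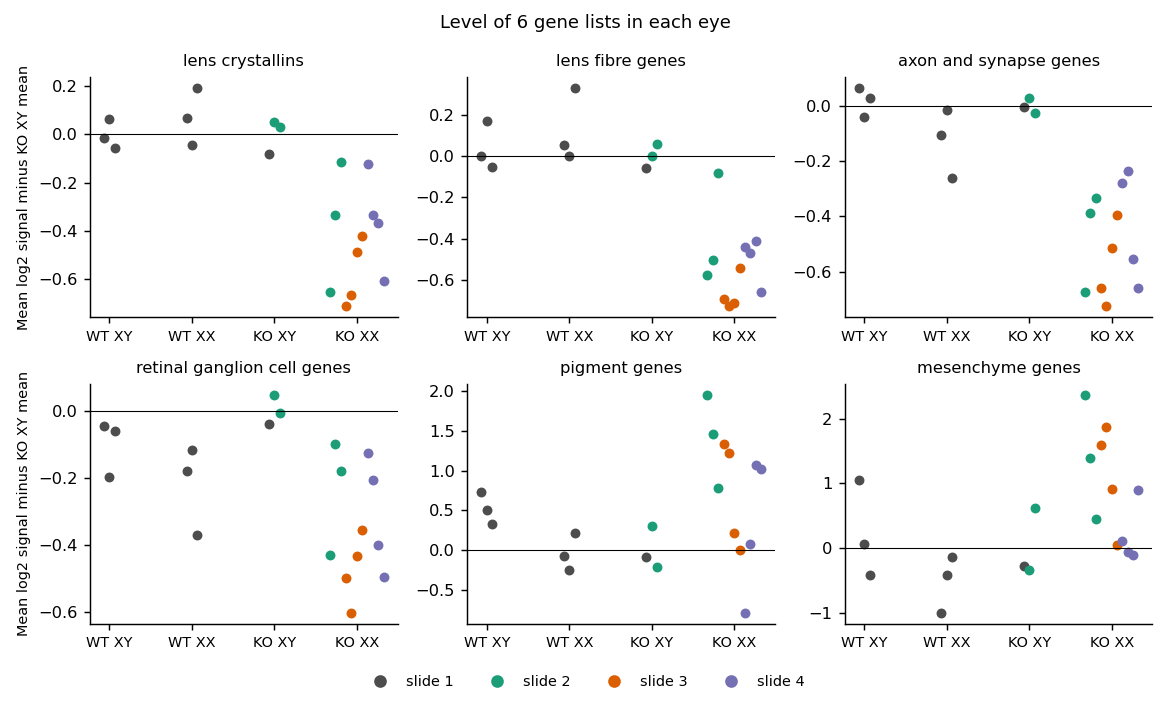
The mean log2 level of 6 gene lists in each of the 20 eyes, relative to the mean of the 3 XY KO eyes, by group (WT XX are the WT females and WT XY the WT males), with the slide as colour. XX KO eyes lie below the other groups for crystallins (-0.71 to -0.11) and lens fibre genes (-0.73 to -0.08), and spread widely for pigment (-0.79 to 1.95) and mesenchyme genes (-0.10 to 2.37).

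Several lists had few or no calls. Of 27 X inactivation and Polycomb factors 0 were called by limma's adjusted p, with 1 probe in each direction at an unadjusted p under 0.05 and a median of 0.02 over 36 probes. Of 29 cell cycle genes 1 rose, Ccne1, the cyclin of entry into S phase (4776, 4575 and 4393 in XY and 4951 to 6787 (median 6000) in XX eyes, log2 difference 0.35 ± 0.09, adjusted p = 0.0479), and the median was 0.05. Of 21 tested genes known for small or absent eyes when mutated, 1 fell, Cryba4, and the median was 0.05. Of their 23 probes 6 were higher and 2 lower at an unadjusted p under 0.05, against 7.34% and 9.63% of all tested probes. In that list Otx2 was at -0.09, Rax at 0.05, and Bmp7, a growth factor of lens induction, at 0.44 (adjusted p = 0.122). None of 8 endothelial genes (median 0.24, 2 probes with an unadjusted p under 0.05), 9 immediate early and heat shock genes (median -0.02, 1 probe) or 17 cholesterol genes (median -0.07, 3 probes) passed limma's adjusted test. Of all tested probes 17.0% had an unadjusted p under 0.05 in either direction. Of the surface ectoderm list 2 of 17 genes were tested, Krt18 and Trp63, and neither was called. No muscle gene reached the minimum signal. Called probes lay on every autosome, from 0.77% of the tested probes on chromosome 1 to 3.15% on chromosome 7. Of the 548 X-linked probes, adjusted together with the autosomal ones, 24 (4.38%) were called, 17 higher (3.10%) and 7 lower (1.28%).

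Slide 2 holds XX eyes 1 to 3 with XY eyes 2 and 3, so this comparison was repeated there, with the caution that these eyes are also part of the one above. No probe passed limma's adjusted test on slide 2, while 1605 (11.8%) had an unadjusted p under 0.05 and 580 (4.25%) met the study's criteria, 220 higher and 360 lower. All 269 called probes had the same sign, with a median of -0.44 for the lower and 0.31 for the higher ones, and 260 had no overlap between the 3 XX and 2 XY eyes, which 33.6% of all probes had. The genes named by the size of their difference had to be without overlap and of the same direction on slide 2, so their values there are a description. The difference within slide 2 was -0.89 for Bfsp1, -0.90 for Gli1, -0.93 for Hhip, -1.36 for Beta-s, 1.04 for Robo1 and 0.37 for Trim71. The median of the lens fibre list was -0.48 there, that of crystallins -0.40, with 22 of 22 probes below 0, and that of ganglion cell genes -0.25. Pigment genes had a median of 1.27, with all 11 probes free of overlap, and mesenchyme genes of 1.54. Adding the slide as a block leaves these same 5 eyes to carry the difference, since no other slide holds both groups. By slide, the level of the crystallin list in XX eyes relative to the XY mean had a median of -0.33 on slide 2, -0.58 on slide 3 and -0.35 on slide 4, and that of the lens fibre list of -0.50, -0.70 and -0.45. Of the 269 called probes, 51 differed between slides among the XX eyes, as did 4631 (33.9%) of all 13651 tested probes.

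In WT eyes, females were compared with males in the same fit. No probe passed limma's adjusted test, 1377 (10.1%) had an unadjusted p under 0.05, and 571 (4.18%) met the study's criteria, 353 higher and 218 lower in females. The 208 probes lower in XX than XY KO eyes had a median of -0.03 between WT females and males, and 116 of them were below 0. For the 61 higher probes the median was 0.09 and 41 were above 0. Bfsp1 read 11408, 11223 and 14044 in WT females 1, 2 and 4 and 12574, 13830 and 10694 in WT males 1, 2 and 3 (log2 difference -0.02). The WT groups overlapped. Hhip read 450, 502 and 424 and 784, 649 and 871, a difference of -0.74 (adjusted p = 0.331), without overlap and with the same sign as in the KO eyes. Robo1 read 1270, 1395 and 1133 and 1560, 1387 and 1163 (-0.11), so all 6 WT eyes lay within the range of the XX KO eyes and above the 3 XY KO eyes. Gli1 read 7048, 6120 and 5836 and 7470, 7476 and 9734 (-0.37), and Trim71 827, 940 and 1012 and 910, 873 and 870 (0.06). Of the called probes, 33 had an unadjusted p under 0.05 in WT (limma). Mogat2 read 1136, 1093 and 1392 and 1010, 935 and 754 (0.43, unadjusted p = 0.0139, adjusted p = 0.367). Ptpn5 read 702, 868 and 622 and 1122, 1070 and 1007 (-0.56, unadjusted p = 0.0326, adjusted p = 0.437). Both, and Unc5b (0.31), Clec18a (0.21), Galnt12 (0.23) and Chac1 (-0.52), were without overlap in WT, with the sign of the KO eyes. Beta-s was without overlap with the opposite sign (0.46). List medians in WT were 0.06 for crystallins, 0.06 for lens fibre genes, -0.15 for ganglion cell genes, -0.13 for axon and synapse genes, -0.24 for other retinal neurons (11 of 13 probes below 0), -0.12 for proneural and Notch genes (18 of 24 below 0), 0.04 for the amino acid response, 0.05 for hypoxia and glycolysis, 0.07 for erythroid genes, 0.15 for macrophage genes, -0.62 for pigment genes and -0.67 for mesenchyme genes. The level of the crystallin list was -0.05 to 0.19 in WT females and -0.06 to 0.06 in WT males, against -0.71 to -0.11 in XX KO eyes, all relative to the XY KO mean. In the same 3 groups the level of the ganglion cell list was -0.37 to -0.12, -0.20 to -0.05 and -0.60 to -0.10, and that of the axon and synapse list -0.26 to -0.01, -0.04 to 0.07 and -0.72 to -0.24. The ganglion cell list of both WT groups overlapped that of the XX KO eyes. For axon and synapse genes only WT female 4 reached their range. The members of that list were chosen after the KO values were seen, so the 2 lists cannot be set against each other. All XX KO eyes and most XY KO eyes lay on other slides than the WT eyes, so levels between WT and KO carry the slide with them.

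The difference between the KO and the WT sex differences was tested as an interaction. No probe passed limma's adjusted test, and 1907 had an unadjusted p under 0.05. The difference of differences was -1.79 for Beta-s (unadjusted p = 0.000298, adjusted p = 0.145), -0.95 for Bfsp1 (adjusted p = 0.194) and 1.29 for Robo1 (adjusted p = 0.205). For Hhip it was -0.50 (adjusted p = 0.493) and for Gli1 -0.69 (adjusted p = 0.409). That the calls are found in KO and not in WT eyes is thus not shown to be a difference between the genotypes for any single gene. The standard error of a log2 difference was 0.117 at the median in WT, against 0.0934 in KO eyes. Both come from 1 fit in which the groups share the spread of a probe, so they differ through the numbers of eyes.

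**Figure D5:**
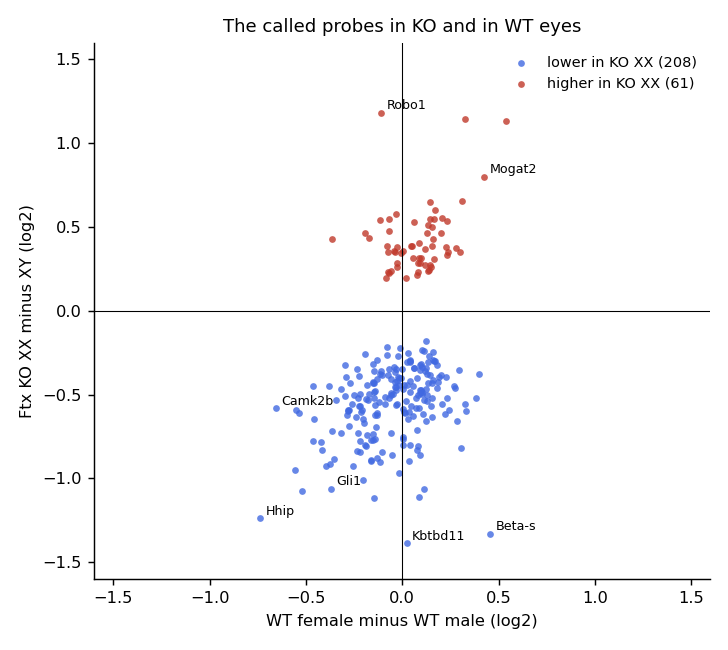
Each point is 1 of the 269 called probes, with the log2 difference of XX minus XY KO eyes on the vertical axis and that of WT females minus WT males on the horizontal axis. The 208 probes lower in XX KO eyes spread about a WT median of -0.03, with 116 below 0, and the 61 higher ones about 0.09, with 41 above 0.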

How the data were processed

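Single-colour arrays of 20 eyes (31 arrays) were used. For each spot the authors deposited the intensity that Agilent Feature Extraction 11.0.1.1 had written, with the background subtracted and no normalization between arrays, and a series table of the same intensities, read here on the log2 scale as an alternative. Of the flagged spots, those non-uniform (120) or far from their copies (5639) and control spots (3671 per array) were left out. Intensities were normalized with the quantile-spline method named in the study's methods, rewritten in R 4.3.3 (100 samples, 5 iterations, minimum offset 5, data.table, version 1.17.8). Spots of a probe, and the 2 arrays of an XX eye, whose correlation was 0.994 to 0.999, were averaged on the log2 scale. The median spot intensity was 34.2 to 75.0 on XX and 34.8 to 39.7 on XY arrays, with 48.2% to 70.4% and 49.9% to 55.0% of spots well above background. The number of arrays limits the precision.

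The 4 groups were fitted together over 20 eyes (16 residual degrees of freedom) with limma 3.58.1, with a trend on the mean and Benjamini-Hochberg adjustment over the 13651 probes, two-sided. Of these, 21 probes had a missing eye. A fold change is a difference of log2 intensities as normalized. A called probe has an adjusted p under 0.05, and a called gene at least 1 called probe. The genes named are the 12 largest differences in each direction among called probes whose groups do not overlap on slide 2 and differ there the same way (1 probe per gene), with members of the lists; a few genes that meet this rule are not reported here. The comparison, its members and 19 gene lists were chosen with earlier results of these data known, and 5 further lists (axon and synapse, proneural and Notch, Hedgehog, Lin28 and let-7, amino acid response) after the values were seen, so no list is an independent test. Gene names are those of the files. A RefSeq list of GRCm38.p6 held 10698 of the 10958 transcript accessions on tested probes, 1042 of them with a different symbol. The fit was tested on simulated data. Alternatives were other normalizations and filters, 1 array per XX eye, the KO eyes alone, slide and replicate number as blocks, eyes left out and the methods' t-test. The replicate numbers did not pair the eyes (same-number correlations -0.53, 0.11 and 0.29).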

Additional observations from a re-analysis of the deposited data

Results flagged for a closer look

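The sex difference of Beta-s, an adult beta-globin gene, had opposite signs in the 2 genotypes, although in WT it did not pass the test. It was -1.33 on the log2 scale between XX and XY KO eyes and 0.46 between WT females and WT males (limma, unadjusted p = 0.166, adjusted p = 0.672), and the difference of differences was -1.79 (limma, unadjusted p = 0.000298, adjusted p = 0.145). It read 4199, 4651 and 5697 in WT females and 2922, 3755 and 3932 in WT males. All 11 XX eyes were below the 3 XY eyes. The difference does not pass the adjustment over all probes, and the amount of blood in each eye was not tested.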

How the results depend on the processing

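The direction of the 269 called probes was kept under every alternative in which they were tested. The number of adjusted calls was 195 to 277 with other normalizations, the series table, a minimum of 100, the mean of the 2 group means above 500, probes well above background and array 1 of each XX eye. It was 176 with a minimum signal of 1000, where fewer probes are tested, 157 with array 2 of each XX eye, 56 in a fit of the 14 KO eyes alone, 0 with the slide as a block, and 968 by the methods' t-test with Benjamini-Hochberg adjustment (421 higher, 547 lower). The called probes were in part others. Of the 968 by the t-test 178 were among the 269. So were 212 of the 277 with a minimum of 100, 159 of the 214 well above background and 193 of the 195 with the 75th percentile. Leaving out 1 XY eye gave 0 to 12. With the replicate number as a block, although the numbers do not pair the eyes, 2 probes were called. Of alternatives chosen after seeing the data, leaving out the XX eyes of slide 3 gave 3 calls, leaving out XX eye 6, where Y-linked genes read above the other XX eyes, gave 104, and leaving out XX eye 8 gave 360. Fewer eyes are fitted when eyes are left out, and the cause of the other changes was not tested.

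The count by the study's criteria (971) was 1924 with a minimum of 100, 644 with a minimum of 1000, 2283 with probes well above background, 605 with the slide as a block and 577 without the XX eyes of slide 3, and 677 to 1296 with 1 XY eye left out. On slide 2, 0 to 1 probes passed the adjusted test and 335 to 962 (580 with all eyes) the study's criteria when 1 eye was left out. In WT eyes the latter count was 235 to 977 (571) and for the difference of differences 863 to 1622 (1379), with 0 adjusted calls throughout. Medians kept their sign in 23 of 23 tested lists with the 75th percentile and with quantile normalization, and in 20 of 23 on slide 2, where the Hedgehog list went from 0.16 to -0.03, X inactivation and Polycomb factors from 0.02 to -0.01 and immediate early and heat shock genes from -0.02 to 0.07. Signal over background limits what dim probes can show.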

Other observations

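Some called genes outside the lists were picked out here after their values were seen, and no group that they belong to was counted or tested. Snrpn, expressed from the paternal allele, was lower in XX KO eyes with 2 probes (-0.57 and -0.52 on the log2 scale), Peg13, a paternally expressed noncoding RNA, was lower (-0.34), and Mest, another paternally expressed gene, was higher (0.23). Penk (-0.49) and Tac1 (-0.45), which encode neuropeptides, were lower. Apoc1, an apolipoprotein gene, was higher by 1.15 (adjusted p = 0.0325), with 554.8 ± 165 (SD) in 11 XX eyes and 248 ± 74.8 in 3 XY eyes, and its groups overlapped. It passed the minimum signal through the XX eyes alone, as Fgf3 below did through the XY eyes (adjusted p = 0.0374 and 0.0266 with the minimum of 100). Fgf3, a growth factor gene, and Adamts1, a secreted protease gene, were each lower by the same amount to 2 decimals (-0.88).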
